A study of Rattus norvegicus with 8 samples.

Results

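Astrocytes are the star-shaped support cells of the brain, and their work was followed here through 10 genes that mark them in whole tissue. The genes were Gfap, Aqp4, Slc1a2, Slc1a3, Aldh1l1, Glul, Gja1, S100b, Agt and Apoe. They were found by matching the gene symbol of each measured 3′ end, and all 10 were present, as 10 of 18003 gene symbols and as 56 of 98356 alternative polyadenylation (APA) sites. An APA site is a place where transcripts of a gene end and receive their poly(A) tail, and a gene can have several.

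The tissue was the hypothalamus of adult male Long-Evans rats. One group of 4 rats received cannabis plant matter vapor for 10 min, and 4 control rats spent the same time with an unfilled vaporizer (air). The rats had fed freely, food was withheld for the 1 hr that followed, and tissue was then taken. Whole transcriptome termini site sequencing (WTTS-Seq) gave 1 library per rat, and the labels number the air controls 1, 2, 3 and 4 and the cannabis rats 1, 2, 3 and 5.

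Astrocytes clear glutamate from synapses and convert it to glutamine, move water and potassium at their contacts with blood vessels, and exchange small molecules with each other through gap junctions. They also secrete proteins, among them the lipid carrier apolipoprotein E and the precursor of angiotensin. In the hypothalamus they border the neurons that control feeding and fluid balance. Several of the genes are not exclusive to astrocytes, since S100b and Glul are also used by oligodendrocytes and Apoe by microglia.

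The libraries held from 1159811 reads on sites (air control 4) to 3706778 (cannabis 2), and the 10 genes took from 1.34% to 1.57% of them. Values are normalized counts, that is, read numbers scaled by the size factor that DESeq2 gave each library, and 1 read was worth 0.664 to 1.99 normalized counts. A read was taken to mark a transcript end, so the counts are not expected to grow with transcript length. Whether each site is a true end was not tested. The libraries were made with PCR, so 1 transcript can have given more than 1 read. Sites without a gene symbol, 34043 in all, held 12.1% to 16.1% of the reads of a library. Ends of a member that were not assigned to its gene could lie among them. Per the study, sites shortly downstream of a gene or antisense to its exons were also assigned to that gene. All 6 genes checked as markers of the hypothalamus (Avp, Oxt, Pomc, Agrp, Pmch and Hcrt) had reads in every library. Their sum was 2571 to 4912 in air controls and 6604 to 8705 in cannabis rats. Avp was the largest part of it in each library, with means of 1952 and 4934. It was the 1 of the 6 whose groups did not overlap (exact permutation P = 0.0286). Over all gene symbols, 1.19% had groups that did not overlap, with cannabis higher. Oxt had means of 596 and 1193 and overlapped (exact permutation P = 0.0571). All 6 had higher means in cannabis rats. Avp and Oxt had P under 0.01 from limma, against 0.278% of all gene symbols in either direction, and neither had adjusted P under 0.1. Pomc, Agrp, Pmch and Hcrt differed less, at P of 0.108 to 0.375 from limma. In bulk tissue, fewer cells of a type and less RNA per cell cannot be told apart.

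Across the 10 genes, no gene total passed the test. A gene total is the sum over all sites of a gene, and groups were compared with limma on log2(normalized count + 1), so fold changes are on that scale and are cannabis minus air control. With P under 0.01 as the threshold, 0 of 10 members were called, against 0.278% of all gene symbols, and 0 of 10 had P under 0.05, against 2.41%. Tests on the recovered whole reads with edgeR and DESeq2 also called 0 of 10 at P under 0.01, and over all gene symbols they called 54 and 76, against 50 with limma. Adjusted P from limma was 0.999 for each of the 10. Of the fold changes, 5 were above 0 and 5 below, with a median of 0.15 beside 0.05 over all gene symbols. The 95% interval of the fold change lay within 1 of 0 for 6 genes, but not for Gfap, Aqp4, Slc1a3 and Gja1. The summed level of all 10 was 34012 ± 2786 normalized counts in air controls and 34489 ± 2923 in cannabis rats (SD, n = 4 each), and Apoe alone made up most of it. Without Apoe the sum was 8587 to 10803 in air controls and 10275 to 12598 in cannabis rats, so the groups overlapped.

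**Figure D1:**
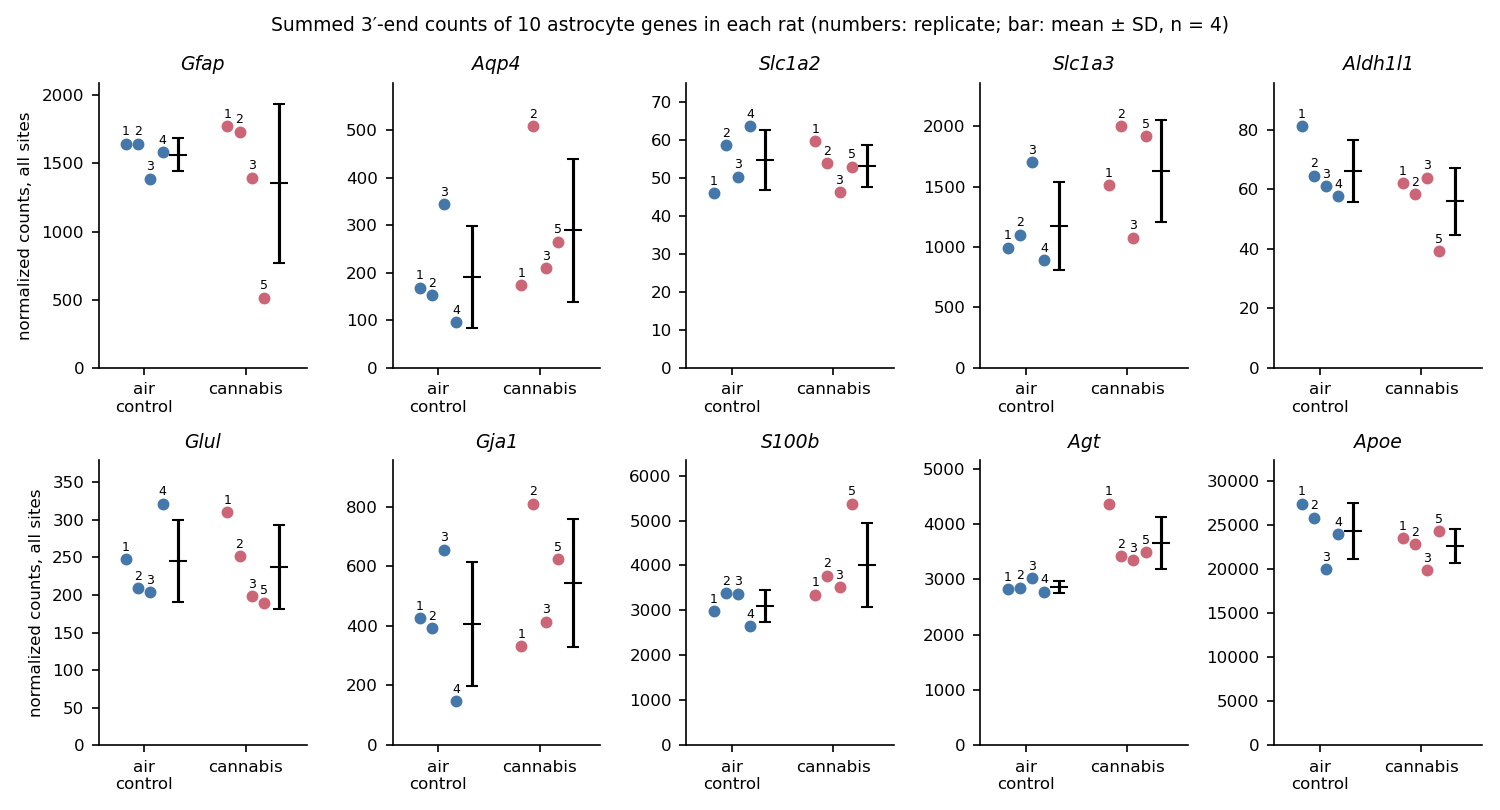
Gene totals of the 10 genes in normalized counts (y axis, starting at 0, own scale per gene) for the 4 air controls and the 4 cannabis rats. Points are rats with their replicate number and bars are mean ± SD (n = 4); the groups separate only for Agt (2776 to 3023 in air controls, 3347 to 4367 in cannabis rats).

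**Figure D2:**
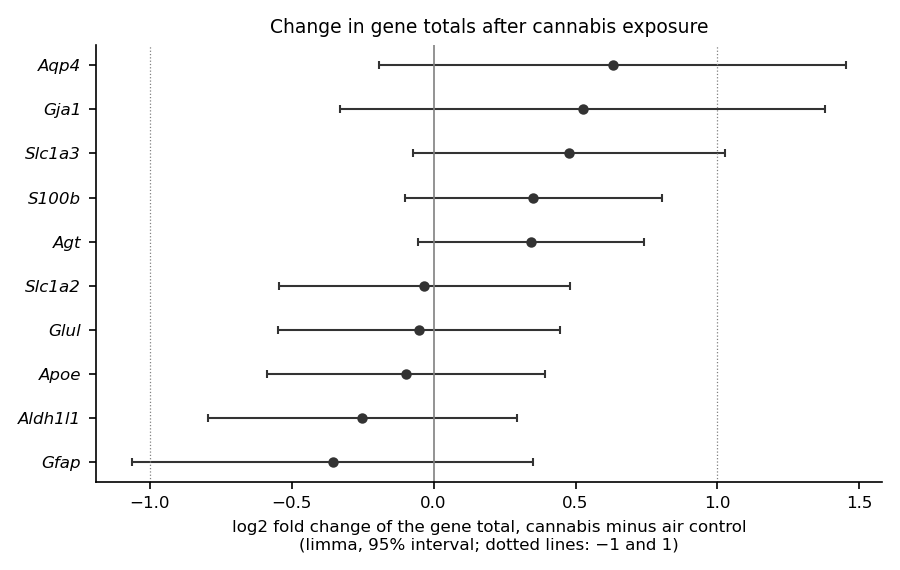
Fold change of each gene total (x axis, log2 scale, cannabis minus air control) with its 95% interval from limma. Points run from −0.36 for Gfap to 0.63 for Aqp4, and each interval includes 0.

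Gfap encodes glial fibrillary acidic protein, an intermediate filament of the astrocyte skeleton. Its total was 1646, 1646, 1388 and 1581 normalized counts in air controls 1 to 4, and 1772, 1734, 1396 and 515 in cannabis rats 1, 2, 3 and 5. Cannabis 1 and 2 lay just above the air controls and cannabis 3 within their range, while cannabis 5 was far below all other libraries. On the log2 scale the change was −0.36 (SE 0.33, 95% interval −1.06 to 0.35, P = 0.298, exact permutation P = 0.743). Without cannabis 5 it was 0.06, so the direction rested on that rat. That library was not shallow, with 3050102 reads on sites, of which 671 were on Gfap.

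S100b encodes a calcium-binding protein of astrocytes and some oligodendrocytes. Its total was 2986, 3378, 3372 and 2653 in air controls, and 3348, 3769, 3522 and 5376 in cannabis rats. The same rat that was lowest in Gfap, cannabis 5, was highest in S100b, and cannabis 1 lay within the range of the air controls. On the log2 scale, cannabis minus air was 0.35 (SE 0.21, 95% interval −0.10 to 0.80, P = 0.118, exact permutation P = 0.0857), and it was 0.20 without cannabis 5.

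Aldh1l1 encodes a folate enzyme that is widely used to label astrocytes. Its total was low, at 81.1, 64.6, 61.1 and 57.6 in air controls and 62.1, 58.5, 64.0 and 39.2 in cannabis rats, and rested on 29 to 111 reads. Cannabis 5 was again the lowest and air control 1 the highest, with the other 6 libraries close together. The log2 difference was −0.25 (SE 0.25, 95% interval −0.79 to 0.29, P = 0.338, exact permutation P = 0.371), and it was −0.09 without cannabis 5 and −0.15 without air control 1.

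Slc1a3 encodes GLAST, a transporter that takes glutamate up into astrocytes. Its total was 993, 1103, 1704 and 892 in air controls, and 1514, 1998, 1078 and 1919 in cannabis rats. Air control 3 lay among the higher cannabis rats and cannabis 3 among the lower air controls, so the groups overlapped. The log2 fold change was 0.48 (SE 0.25, 95% interval −0.07 to 1.03, P = 0.0832, exact permutation P = 0.171), the smallest P from limma among the 10. Without air control 3 it was 0.67.

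Slc1a2 encodes GLT-1, the other main glutamate transporter of astrocytes. Its total was 46.1, 58.7, 50.4 and 63.6 in air controls, and 59.6, 53.8, 46.2 and 53.0 in cannabis rats. The groups lay on top of each other, and only 32 to 81 reads per library were assigned to the gene. On the log2 scale the change was −0.03 (SE 0.24, 95% interval −0.55 to 0.48, P = 0.889, exact permutation P = 0.829). The low count of this transporter beside Slc1a3 is a count of ends assigned to its symbol. Ends too far downstream of the annotated gene to be assigned to it would not be in that count.

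Glul encodes glutamine synthetase, which turns the glutamate that was taken up into glutamine. Its total was 248, 209, 203 and 322 in air controls, and 310.5, 252, 199 and 189.7 in cannabis rats. Both groups spanned about the same range. On the log2 scale, cannabis minus air was −0.05 (SE 0.23, 95% interval −0.55 to 0.44, P = 0.828, exact permutation P = 0.714).

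Aqp4 encodes the water channel aquaporin-4 of astrocyte endfeet. Its total was 168, 153, 344 and 95.3 in air controls, and 174, 508, 209.6 and 265 in cannabis rats. Every cannabis rat lay above 3 of the air controls, but air control 3 lay above 3 of the cannabis rats. The log2 difference was 0.63 (SE 0.38, 95% interval −0.19 to 1.45, P = 0.122, exact permutation P = 0.257). It ranged with the library left out, from 0.32 to 0.97, the former without cannabis 2 and the latter without air control 3, and was 0.35 without air control 4.

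Gja1 encodes connexin 43, the main gap junction protein of astrocytes. Its total was 427, 393, 656 and 147 in air controls, and 333, 810.4, 414 and 624 in cannabis rats. Air control 4 was far below the others, and cannabis 1 lay below 3 of the air controls. The log2 fold change was 0.53 (SE 0.40, 95% interval −0.33 to 1.38, P = 0.207, exact permutation P = 0.429). Without air control 4 it was 0.10, without cannabis 2 it was 0.31, and without air control 3 it was 0.82.

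Gja1 and Aqp4 followed the number of reads of a library. Over the 8 libraries, the log2 level of Gja1 and the log2 number of reads on sites had Pearson's r = 0.94 (exact permutation P = 0.000496) and Spearman's rho = 0.98 (exact permutation P = 0.000397). After adjustment over the 20 relations tested, both were P = 0.00496 by permutation. These tests of depth were not part of the plan. For Aqp4, r was 0.85 (permutation P = 0.00655, adjusted 0.0437) and rho 0.81 (permutation P = 0.0218, adjusted 0.109). Without the 2 libraries farthest in depth, cannabis 2 and air control 4, r was 0.80 for Gja1 and 0.66 for Aqp4 over 6 libraries (permutation P = 0.0667 and 0.161), so neither was past 0.05 without those libraries. Of the 12114 gene symbols with a mean of at least 10 normalized counts, 7.64% had r of 0.8 or more, with a median r of 0.22, and 0.429% had r as high as Gja1. Among the other members r was 0.65 for Slc1a3, −0.71 for Slc1a2 (permutation P = 0.0498, adjusted 0.199) and 0.11 for Agt. With the log2 number of reads as a covariate, the log2 fold change was 0.37 for Aqp4, 0.23 for Gja1 and 0.35 for Agt. The summed markers of ependyma and tanycytes were also lowest in air control 4 (21.8) and cannabis 1 (38.5) and highest in cannabis 2 (93.0). In air control 2, however, that sum was 80.2, close to the 80.6 of cannabis 5, while Gja1 was 393 and 624. The cause of the relation with reads was not tested.

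**Figure D3:**
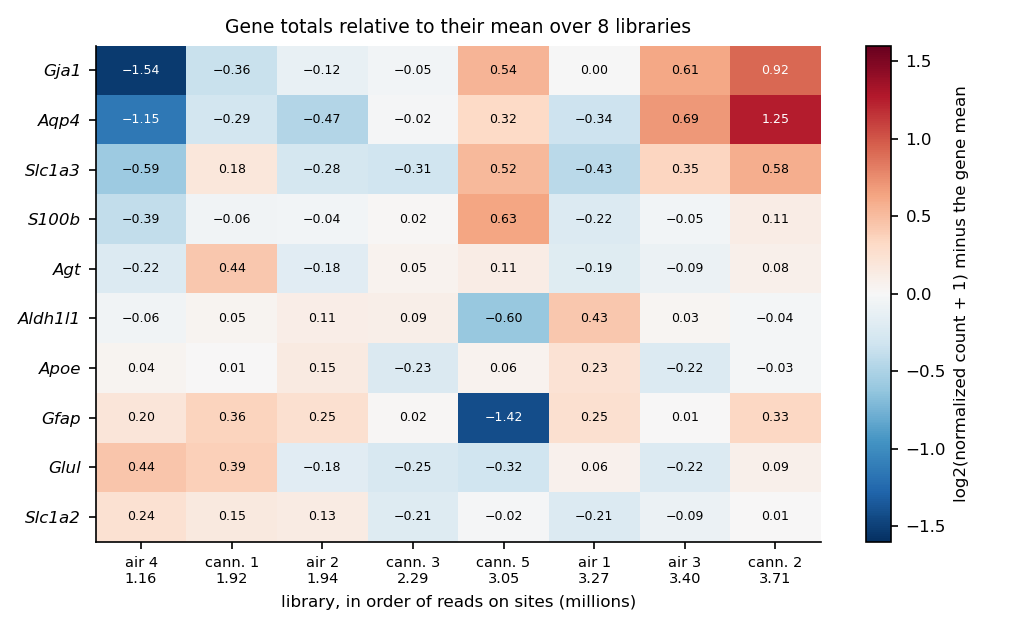
Gene totals of the 10 genes as log2(normalized count + 1) minus the mean of the gene over 8 libraries (colour and printed value), with libraries ordered from the fewest to the most reads on sites (x axis). Gja1 runs from −1.54 in air control 4 to 0.92 in cannabis 2 and Aqp4 from −1.15 to 1.25, while Gfap is lowest in cannabis 5 at −1.42.

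The remaining genes encode secreted proteins. Agt encodes angiotensinogen, the precursor of angiotensin, which astrocytes make in the brain. Its total was 2820.3, 2848, 3023 and 2776 in air controls, and 4367, 3415, 3347 and 3492 in cannabis rats. Every cannabis rat lay above every air control, the mean was 2867 ± 108 against 3655 ± 479 (SD, n = 4 each), and the ratio of means was 1.27. On the log2 scale the change was 0.34 (SE 0.18, 95% interval −0.05 to 0.74, limma P = 0.0854, exact permutation P = 0.0286). That permutation P is the smallest that 4 against 4 rats can give. Agt was the 1 of 10 members whose groups did not overlap, beside 1.98% of all gene symbols in either direction and 1.19% with cannabis higher. Leaving out each library in turn, the fold change ranged from 0.25 to 0.38, and it was lowest without cannabis 1, the highest rat.

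Apoe encodes apolipoprotein E, which carries cholesterol and other lipids between brain cells. It was by far the most abundant member, at 27468, 25873, 20024 and 24026 in air controls and 23510.2, 22887, 19934 and 24340.1 in cannabis rats. Air control 1 was highest and cannabis 3 lowest, with the other rats mixed between them. On the log2 scale, cannabis minus air was −0.10 (SE 0.23, 95% interval −0.59 to 0.39, P = 0.676, exact permutation P = 0.429).

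The 56 sites were spread unevenly, from 2 in Aldh1l1 to 11 in S100b. The site with the most reads held between 51.2% and 98.3% of its gene on average, and over 90% in 3 genes. Of the 56 sites, 25 had a mean of at least 10 normalized counts and are numbered within each gene by level, and 31 had means of 1.45 to 9.58, of which 13 had no read in at least 1 library. A position in Rnor_6.0 was known for 10 of the sites, of which 7 were distal (at the 3′ end of the gene model) and 3 exonic. The location of the other 46 was not known, so downstream or antisense sites may be among them. Of the site levels, 0 of 56 had P under 0.01, against 0.381% of all sites. At P under 0.05, 1 site was higher and 1 lower, against 3.03% of all sites in either direction. Of the site shares, tested as the log2 ratio of a site to the other sites of its gene, 0 had P under 0.01, against 0.466% of the 57287 sites tested, and 1 had P under 0.05, against 3.27%.

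**Figure D4:**
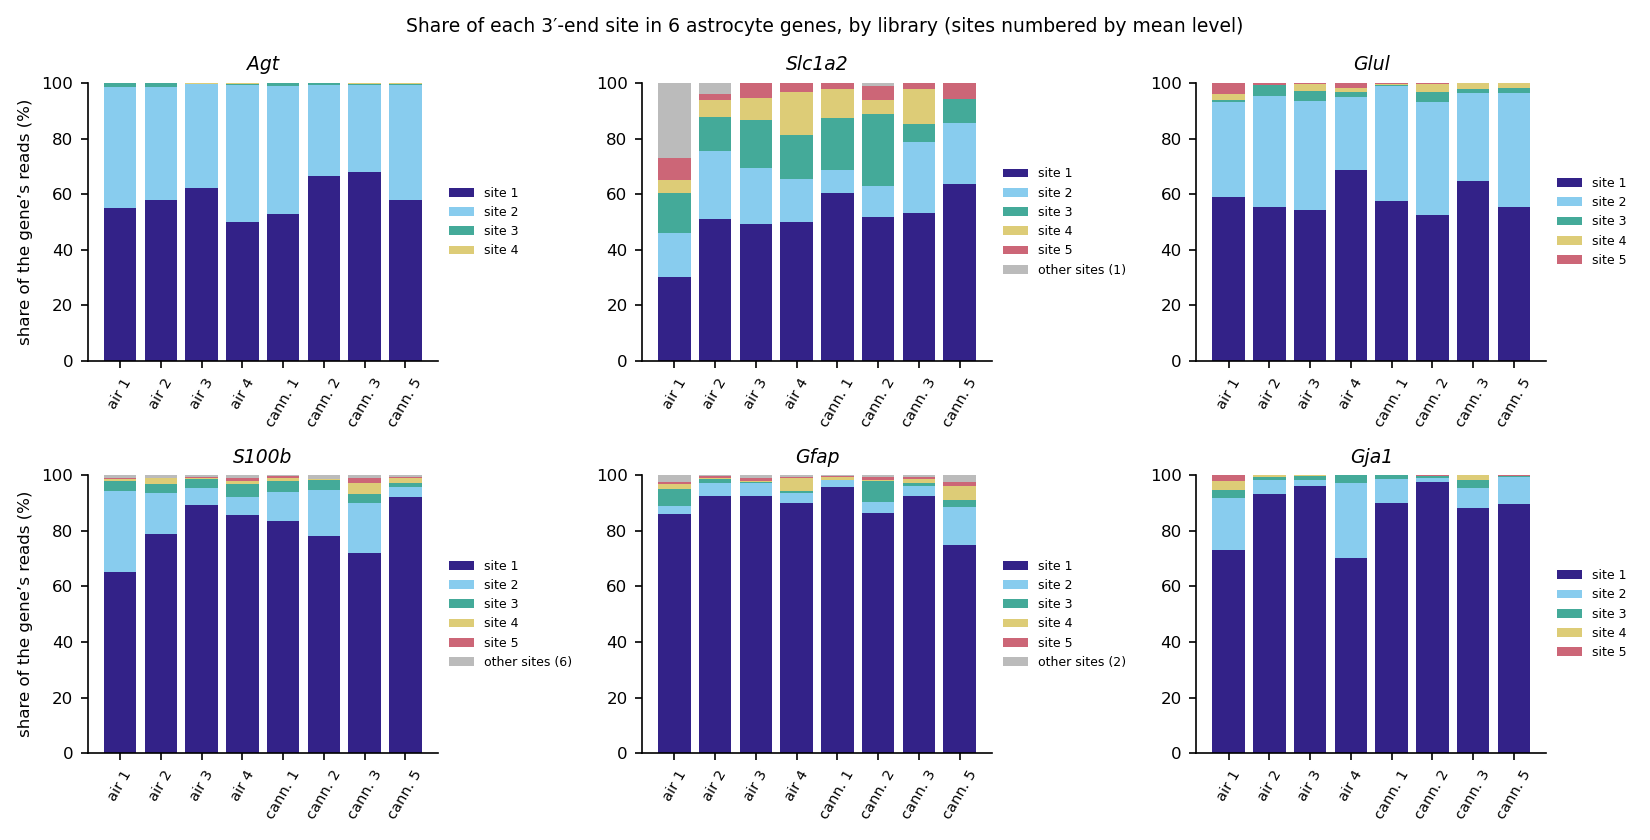
Share of each site in the reads of its gene (y axis, percent, 0 to 100) in each of the 8 libraries (air controls, then cannabis rats) for 6 of the genes, with sites numbered by mean level and small sites pooled. The first site of Slc1a2 has 30.2% in air control 1 and from 49.3% to 63.8% in the other 7 libraries, and the first site of Gfap has 74.8% in cannabis 5.

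Agt had its reads in a pair of sites. Site 1 was distal, at chr19:57321572-57321718 on the minus strand, and site 2 was exonic, at chr19:57321774-57321804, 149 bases upstream of it. Site 1 had 1554, 1648, 1883 and 1390.2 normalized counts in air controls and 2312, 2273, 2277 and 2024 in cannabis rats. Each cannabis rat lay above each air control, and this was the 1 of 56 sites whose level did not overlap between groups, against 2.0% of all sites in either direction and 0.992% with cannabis higher. The mean was 1619 ± 206 against 2222 ± 133 (SD, n = 4 each), with a log2 fold change of 0.46 (SE 0.18, limma P = 0.0189, adjusted P = 1.00 from limma, exact permutation P = 0.0286).

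Site 2 of Agt had 1222, 1158, 1127 and 1362 normalized counts in air controls and 2008, 1113, 1044 and 1448 in cannabis rats. Only cannabis 1 and 5 lay above the air controls there, and the log2 fold change was 0.16 (limma P = 0.481, exact permutation P = 0.629). The share of site 1 was 56.3 ± 5.11% in air controls and 61.4 ± 7.17% in cannabis rats (SD, n = 4 each, exact permutation P = 0.286, limma P = 0.58), so a different response of the 2 sites was not shown. Site 3 had 24.9 ± 17.6 normalized counts in air controls and 24.6 ± 15.01 in cannabis rats.

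**Figure D5:**
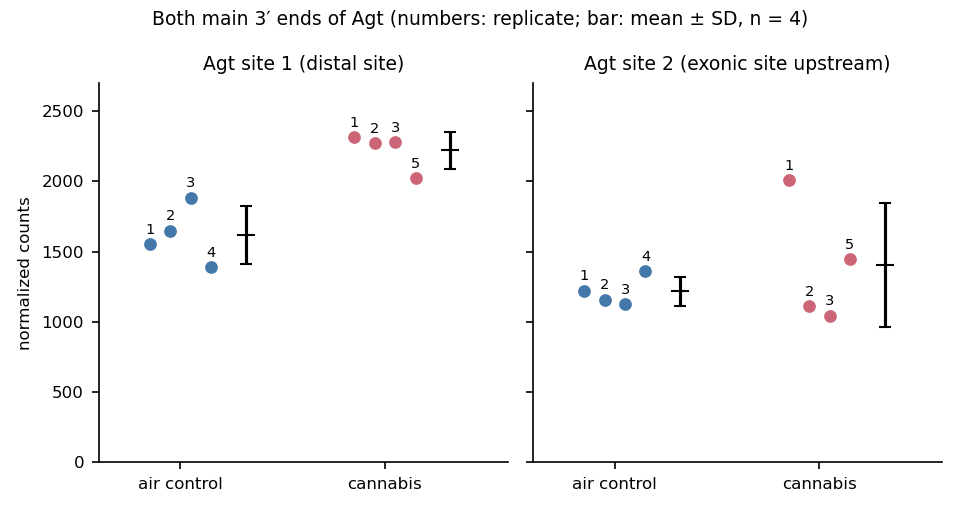
Normalized counts (y axis, starting at 0) of the distal site 1 and the exonic site 2 of Agt in each rat, with mean ± SD (n = 4). Air controls lie between 1390.2 and 1883 and cannabis rats between 2024 and 2312 at site 1, while the ranges overlap at site 2.

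In the genes of the astrocyte skeleton and calcium binding, the main sites carried the totals. Site 1 of Gfap, distal at chr10:90990745-90990783 on the minus strand, had 1412 ± 99.2 normalized counts in air controls and 1219.7 ± 580.2 in cannabis rats, or 90.3% and 87.5% of the gene. In cannabis 5 it held 74.8% of 671 reads (95% Wilson interval 71.4% to 78.0%), and site 2 held 13.7% there (11.3% to 16.5%) against 2.38% to 4.69% in the other 7 libraries. Site 2 itself did not fall in cannabis 5, with 70.7 normalized counts against 42.2 to 74.2 elsewhere, so the low Gfap total of that rat lay in site 1. Site 1 of S100b, distal at chr20:13130616-13130690 on the minus strand, had 1947, 2664, 3007 and 2270.0 in air controls and 2793, 2942, 2539.8 and 4953 in cannabis rats, and the excess of cannabis 5 lay there. Site 2 of S100b, exonic at chr20:13131696-13131728, varied widely within groups, at 871, 502, 214 and 173 in air controls and 355, 626, 629 and 198 in cannabis rats. Its share was 14.2 ± 10.7% in air controls and 12.2 ± 6.49% in cannabis rats, which is less than the spread. The main site of Aldh1l1 held 88.8% of the gene in air controls and 91.3% in cannabis rats.

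For glutamate uptake, Slc1a3 had 96.3% of its counts in the distal site at chr2:57860865-57860909 on the minus strand in air controls and 97.4% in cannabis rats, and this site had 1133 ± 373 against 1589 ± 429 normalized counts (limma P = 0.0589, exact permutation P = 0.171). The first site of Slc1a2 was the 1 of 56 whose share did not overlap between groups. It held 30.2%, 51.0%, 49.3% and 50.0% of the gene in air controls and 60.4%, 51.9%, 53.2% and 63.8% in cannabis rats. In air control 1, site 1 had 13.9 normalized counts, against 24.6 to 36.0 elsewhere. Site 6 had 12.4 there, or 27.0% of the gene on 17 reads, against 0 to 2.39 normalized counts elsewhere. The gap between 51.0% and 51.9% separates groups counted on 16 to 44 reads at this site. The 95% Wilson interval of air control 2 was 37.5% to 64.4%, which is wider than that gap. Such an interval describes the counting in 1 library and does not compare the groups. The mean was 45.1 ± 10.004% against 57.3 ± 5.72% (SD, n = 4 each, exact permutation P = 0.0286, limma P = 0.23), and of 56617 site shares 2.05% did not overlap, 0.982% with cannabis higher. Glul split its counts between site 1, with 59.3% in air controls and 57.6% in cannabis rats, and site 2, with 35.0% and 38.6%. Site 5 of Glul had the other P under 0.05, at 9.50, 1.20, 0.671 and 5.96 in air controls and 1.24, 0.664, 0 and 0 in cannabis rats. Its log2 fold change was −1.54 (limma P = 0.044, exact permutation P = 0.114), and its share had P = 0.0318 (exact permutation P = 0.0571), on at most 13 reads in a library.

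In the water channel and the gap junction gene, site 1 of Aqp4, distal at chr18:6765996-6766048 on the minus strand, held 88.1% of the gene in air controls and 90.2% in cannabis rats. Site 1 of Gja1, distal at chr20:37889079-37889309 on the plus strand, had 353 ± 217 against 504 ± 221 normalized counts. Its share was 73.1%, 93.3%, 96.2% and 70.3% in air controls and 89.9%, 97.5%, 88.4% and 89.7% in cannabis rats. Both low shares came from air controls 1 and 4, in which site 2 held the larger rest, and the share of site 2 was 13.2 ± 11.7% in air controls and 6.72 ± 3.77% in cannabis rats. Air control 4 had only 74 reads on Gja1, and its 95% Wilson interval for site 1 was 59.1% to 79.5%.

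Apoe had 98.4% of its counts in air controls and 98.2% in cannabis rats at site 1, distal at chr1:80612861-80612922 on the minus strand. Site 2, exonic at chr1:80613669-80613708 and 798 bases upstream, had 515, 140.1, 75.2 and 759 in air controls and 366, 152, 113 and 657 in cannabis rats. It varied widely within both groups, and the difference between groups was less than that spread (limma P = 0.998, exact permutation P = 1). Site 3 had 24.02 ± 20.1 against 98.4 ± 139 normalized counts, of which cannabis 5 alone had 304.

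Of 88 listed genes of astrocyte biology outside the 10, 80 were found, and 0 of 80 had P under 0.01 or under 0.05, against 0.278% and 2.41% of all gene symbols. The fold change was above 0 for 54 (67.5%) and below 0 for 26, while it was above 0 for 56.4% of all gene symbols and 58.9% of those with a mean of at least 10 normalized counts. Of 22 other astrocyte genes, 17 were above 0, with a median of 0.15, and the smallest P from limma was 0.090 for Slc7a10 (log2 0.67, from 0.44 without air control 4 to 0.97 without cannabis 3), an amino acid transporter of astrocytes. Of 11 reactive astrocyte genes found of 14, the median was 0.02, and Cxcl10, a chemokine, had the smallest P (0.13), on 40 reads in all (log2 1.13, from 0.68 without air control 2 to 1.70 without air control 3). The glutamate and glutamine genes had 14 of 15 found and a median of 0.11, with the smallest P for the neutral amino acid transporter Slc1a4 (0.167), on 74 reads in all (log2 0.74, and 0.36 without air control 4).

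Of the angiotensin system, 8 of 11 genes were found, with a median of −0.0015. The receptor gene Agtr1b had the smallest P from limma (0.257, log2 0.80) on 50 reads in all, and its log2 value was 0.13 without air control 2. The genes Agtr1a, Agtr2 and Mas1 were not matched. The 15 genes of apolipoproteins and cholesterol handling had a median of 0.07, with the smallest P for the sterol exporter Abcg1 (0.138, log2 0.41, and 0.23 without air control 4). Of the water, potassium and endfoot genes, 10 of 11 were found, with a median of 0.07. Gjb2, which encodes the gap junction protein connexin 26, had 5.85, 4.79, 5.37 and 5.96 in air controls and 1.24, 3.99, 3.94 and 1.54 in cannabis rats. The groups did not overlap, which was the case for 0.783% of all gene symbols with cannabis lower, but the gene had 36 reads in all (log2 −0.91, limma P = 0.081, exact permutation P = 0.0286).

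Markers of the other cell types that such tissue holds were summed for each library. Neuron markers summed to 2811 to 3329.8 in air controls and 2658 to 3360.4 in cannabis rats, oligodendrocyte markers to 40021 to 54214 and 33168 to 49693, and microglia markers to 552 to 715 and 574 to 734. Mbp made up most of the oligodendrocyte sum, with means of 37264 in air controls and 33857 in cannabis rats. Markers of ependyma and tanycytes summed to 21.8 to 80.2 and 38.5 to 93.0. The 2 choroid plexus markers found of 3 summed to 0 to 19.2 and 3.73 to 28.6. The 2 pituitary markers found of 4 summed to 110.1 to 699 and 193 to 632, mostly from Cga (means 379 and 362). Precursors of oligodendrocytes had 81.9 to 103 and 50.2 to 97.6. Of their markers, Cspg4 had means of 23.0 in air controls and 12.9 in cannabis rats and overlapped (log2 −0.81). Its limma P was 0.0442 (adjusted 0.999), and 2.41% of all gene symbols had P under 0.05. The other marker, Pdgfra, had means of 65.5 and 63.9. The 3 endothelial markers found of 4 summed to 81.1 to 87.95 and 93.0 to 115. Flt1 carried this sum, at 71.0 ± 7.32 in air controls and 95.7 ± 12.7 in cannabis rats (SD, n = 4 each), and overlapped between groups, while Pecam1 (8.46 and 6.30) and Cldn5 (6.25 and 4.32) had lower means in cannabis rats and overlapped.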

How the data were processed

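Per the study's methods, the authors removed low-quality reads (FASTX Toolkit) and the Ts at read starts, aligned reads of at least 16 nt to Rnor_6.0 with TMAP 3.4.1, clustered ends within 24 nt, kept sites with at least 16 reads, assigned genes with Cuffcompare 2.2.1 and normalized with DESeq2. The values the authors deposited are this normalized signal per site, 1 rat per file. Reads were recovered from the steps between values, with 100.0% of values within 0.001 of a whole read. Positions came from the site annotation that accompanies the study, matched by symbol and values.

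Gene totals, sites and shares were fitted over all features with limma 3.58.1 (R 4.3.3; lmFit, eBayes with trend, pseudocount 1, Benjamini-Hochberg adjustment), and 4 against 4 rats with two-sided exact permutation tests. Thresholds (P under 0.01, adjusted P under 0.1) follow the study. edgeR 4.0.16 and DESeq2 1.42.0 on recovered reads were alternatives. Members and lists were chosen with earlier results of these data known. All members were named, with their sites of mean at least 10 (up to 5 where a gene had more than 6), and of each related list the gene with the smallest P; site 5 of Glul was named after its values were seen. Wilson intervals of shares cover only the counting of reads within a library, and reads carried no molecular identifiers. Intervals of fold changes came from limma and rest on the variation between libraries. P from limma sets the difference between groups against the variation between libraries, 1 per rat, so animal and library variation are not separated. Permutations used scipy 1.17.1 under Python 3.11.15, and figures matplotlib 3.10.9.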

Additional observations from a re-analysis of the deposited data

Results flagged for a closer look

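Of 120 groups of 4 libraries checked, 14 had 1 library farther from the others than Dixon's 95% critical value of 0.829 allows. About 1 in 20 groups of normally distributed values is marked by chance. Totals, levels and shares of a gene come from the same reads, so 1 event can be marked more than once. The 14 therefore cannot be weighed against that rate.

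Cannabis 5 was the library farthest from its group in 5 of them. It had 13.7% of Gfap at site 2, against 2.38% to 3.79% in the other cannabis rats. At site 1 of Aldh1l1 it had 35.3 normalized counts, against 54.5 to 58.4. At site 1 of S100b it had 4953 normalized counts, against 2539.8 to 2942. At site 1 of Agt it had 2024 normalized counts, against 2273 to 2312, and at site 3 of Apoe it had 304, against 11.8 to 60.4.

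Air control 1 had 104 normalized counts at site 3 of Gfap, against 7.94 to 23.9 in the other air controls, and 6.31% of the gene there, against 0.503% to 1.45%. It had 30.2% of Slc1a2 at site 1, against 49.3% to 51.0%, and 54.1 normalized counts at site 3 of Apoe, against 11.97 to 16.1. Air control 4 had 0.823% of S100b at site 5, against 0.139% to 0.248%.

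Cannabis 1 had an Agt total of 4367 normalized counts, against 3347 to 3492 in the other cannabis rats. Cannabis 2 had 131 normalized counts at site 3 of Gfap, against 0 to 16.7, and 97.5% of Gja1 at site 1, against 88.4% to 89.9%. Cannabis 3 had 31.7% of Glul at site 2, against 40.6% to 41.2%.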

How the results depend on the processing

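The number of the 10 gene totals with P under 0.01 was 0 under all 17 alternatives: pseudocounts of 0.5 and 5, a minimum mean of 10, scaling to equal totals, eBayes without trend, edgeR, DESeq2, a replicate block, each library left out, and the log2 number of reads as a covariate, which was added after seeing the data. Of 1134 recomputed values, 1034 kept their direction and side of the threshold, 98 reversed, 1 passed the threshold and 1 count moved. The level of site 1 of Agt passed P under 0.01 with pseudocount 5, at log2 0.46, so that 1 of the 56 sites was then called. Leaving out 1 library, calls ranged from 30 to 90 over all gene symbols (without air control 1 and cannabis 1), from 227 to 617 over all sites (without cannabis 5 and air control 3) and from 175 to 414 over all shares (without air controls 1 and 3). Over all gene symbols the 50 calls became 76 with DESeq2, 98 without trend and 29 of 12114 with a minimum mean of 10, and over all sites the 375 became 44 of 22164 with that minimum. Of 57287 shares, 267 were called, 170 with pseudocount 5 and 147 with the replicate block, and 45 of 14643 with that minimum. Among gene totals only Gfap, Slc1a2 and Glul reversed. Counts of 162 reads or fewer in the library with the fewest (Slc1a2, Aldh1l1, Aqp4, Gja1 and Glul) limit precision, as do 4 rats per group.

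The labels number both groups 1, 2 and 3, and do not say whether equal numbers pair rats. Same-numbered libraries had correlations of −0.235, 0.089 and −0.0699 between their deviations. Libraries with different numbers ranged from −0.388 to 0.489, so these 3 values cannot decide whether the numbers pair the rats. The replicate block rests on those 3 pairs, since air control 4 and cannabis 5 share no number. It called 24 of all gene symbols, against 50 without it, and left 0 of 10 totals, 0 of 56 sites and 0 of 80 related genes called, moved the totals of Gja1 to 0.0078, S100b to 0.13, Aqp4 to 0.35, Slc1a3 to 0.27 and Aldh1l1 to −0.15, and log2 values reversed for the totals of Gfap (0.063), Slc1a2 (0.041) and Glul (0.18), for the levels of Gfap site 1 (0.084) and Glul site 1 (0.23), and for the shares of Gfap site 1 (0.33) and site 2 (−0.30), Glul site 1 (0.13) and site 2 (−0.0041), and S100b site 1 (−0.10), site 2 (0.024) and site 3 (0.16).

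With the number of reads as a covariate, the reversed values were 0.018 for the Slc1a2 total, 0.021 for the Glul total, 0.0088 for the share of Gfap site 1, and 0.025 for the level and 0.0067 for the share of Glul site 1. With edgeR and DESeq2 they were 0.19 and 0.17 for Gfap site 3, −0.50 and −0.64 for Gfap site 4, −0.019 and −0.038 for Agt site 3, and −0.092 and −0.21 for Apoe site 2. With pseudocount 5 they were 0.13 for the share of Gfap site 3, −0.081 for Gfap site 4, 0.10 for the share of Gfap site 5 and −0.0039 for Apoe site 2, which was −0.019 with equal totals. The causes were not tested.

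Leaving out 1 library reversed some values, and the ranges of log2 were as follows. Totals ranged from −0.54 to 0.058 for Gfap, −0.19 to 0.086 for Glul and −0.11 to 0.041 for Slc1a2. Site levels ranged from −0.029 to 0.29 for Agt site 2, −0.36 to 0.52 for Agt site 3, −0.58 to 0.53 for Apoe site 2, −0.63 to 0.079 for Gfap site 1, −0.23 to 0.033 for Gfap site 2, −1.74 to 0.60 for Gfap site 3, −0.74 to 0.82 for Gfap site 4, −0.55 to 0.28 for Gja1 site 2, −0.23 to 0.12 for Glul site 1, −0.071 to 0.27 for Glul site 2, −0.15 to 0.62 for S100b site 2, −0.037 to 0.21 for S100b site 3 and −0.77 to 0.30 for Slc1a3 site 2. Site shares, as log2 ratios to the other sites of the gene, ranged from −0.73 to 0.18 for Agt site 3, −0.77 to 0.24 for Apoe site 1, −0.40 to 0.63 for Apoe site 2, −0.025 to 0.59 for Aqp4 site 1, −0.63 to 0.36 for Gfap site 1, −0.28 to 0.62 for Gfap site 2, −1.23 to 1.16 for Gfap site 3, −0.33 to 1.19 for Gfap site 4, −0.41 to 0.48 for Gfap site 5, −0.25 to 0.086 for Glul site 1, −0.26 to 0.48 for S100b site 1, −0.53 to 0.34 for S100b site 2, −0.48 to 0.0045 for S100b site 3, −0.10 to 0.97 for S100b site 4, −0.24 to 1.14 for S100b site 5 and −0.0049 to 1.14 for Slc1a3 site 1.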
